A study of Mus musculus with 4 samples.

Results

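The 10 genes described here are Dapl1, Igfbp4, Tmem108, Tdrp, Fam101b, Pdk1, Actn1, St8sia6, Treml2 and Aff3. They were chosen from the 27998 genes of the count tables by an earlier reading of these same data, in which they were high in T cells that looked naive and low in those that looked like effectors. For the values below, each T cell was sorted by how many of 6 activation markers it had at least 1 transcript of, namely Lgals1, S100a4, S100a6, Ccl5, Cd44 and Cxcr3. Cells with at most 1 of these markers are called marker-low, and those with 3 or more marker-high. All 10 genes had counts in marker-low CD8 and CD4 T cells.

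The study asked how blood T cells differ after immune checkpoint therapy. C57BL/6 mice, 6 to 8 weeks old at the start, carried subcutaneous MC-38 tumors, a syngeneic colorectal cancer model. CD3+ T cells enriched from blood on day 18 after tumor challenge were profiled by droplet-based single-cell RNA sequencing, in 1 library for each of 4 groups. The untreated group received no therapy. The PDL1 group received anti-PD-L1, 150 µg of an antibody that blocks the inhibitory PD-1 pathway on days 10, 13 and 17. The OX40 group was read as the one given anti-OX40/CpG, that is 150 µg of an agonistic antibody to the costimulatory receptor OX40 with 25 µg of the TLR9 ligand CpG on day 7. PDOX combined both treatments on the same days. Values for the 4 libraries are given in the order untreated, PDL1, OX40 and PDOX. With 1 library per group, mouse, library and treatment cannot be told apart.

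The libraries held 862 to 1583 cell barcodes and 2392650 to 4969885 UMIs (unique molecular identifiers, counted transcripts), and any pair shared 1 to 6 barcodes. Without the genes of mitochondria, ribosomal proteins and hemoglobin, the median cell held 1434.5 to 1618 UMIs. Hemoglobin took 7.99% of all UMIs in the untreated library and 0.344% to 1.70% in the others. Of 5299 cells with at least 200 genes, 4341 were T cells, of which 1886 could be assigned to CD8 and 802 to CD4. Marker-low cells numbered 1254 among CD8 and 491 among CD4 cells, and marker-high cells 427 and 251. The marker-low share of CD8 cells was 87.6%, 80.1%, 61.6% and 42.4%, and that of CD4 cells 89.1%, 87.2%, 56.3% and 39.7%. Because the share of marker-low cells differed this much between libraries, levels are given within each class of cells and not over all T cells.

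A naive T cell circulates between blood and lymph nodes in a resting state, in which the transcription factors TCF1, LEF1, KLF2 and FOXO1 keep homing receptors such as CD62L and CCR7 and the survival receptor for IL-7 switched on. After antigen and costimulation the cell divides, changes its metabolism and cytoskeleton, and replaces this program with genes for cytotoxicity and entry into tissue. Genes that mark the resting state are less familiar than these regulators, and several of those described here have been studied mostly outside T cells.

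A list of 14 naive T cell genes that does not overlap with the 10 was used to check the classes. All 14 were higher in marker-low cells in both lineages, with a median ratio of 2.15 in CD8 and 3.04 in CD4 cells. Over all genes with at least 50 UMIs, 3730 of 6243 in CD8 and 2037 of 3976 in CD4 cells were higher. The smallest CD8 ratio of the 14 was that of Ets1, 1.09, with a 95% interval for counting error of 0.996 to 1.20. The transcription factor Lef1 stood at 9.38 against 2.07 UMIs per 10000 in CD8 cells, and the lymph node homing receptor Ccr7 at 5.72 against 1.25. A list of 15 effector genes held none of the 6 markers. All 15 in CD8 cells and all 13 with enough UMIs in CD4 cells were at least 1.5 times lower in marker-low cells. Over all genes with at least 50 UMIs, 572 of 6243 in CD8 and 537 of 3976 in CD4 cells were. Among the 15, the granzyme gene Gzmb stood at 0.0532 against 7.12 UMIs per 10000 in CD8 cells. These lists too were chosen with results of these data known, so they describe the classes and do not test them. Marker-high cells were deeper, with a median of 1893 to 3057 UMIs in CD8 cells against 1413 to 1614.5 in marker-low ones.

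Promoter sequences are shown for those members whose level differed between the CD8 and CD4 lineages below, so that members higher in CD8 and members higher in CD4 cells can be set side by side. RefSeq promoter sequence (GRCm38.p6, the patch release of the mm10 build in the submitters' processing notes) was matched for 8 of the 10 members, in 10 windows, and Tdrp and Treml2 were not matched. Each line gives the 250 bases before a start site, 5′ to 3′ on the strand of the gene, with capitals for a match to one of 4 motifs. The windows are chr2:59484403-59484652 (plus strand) for Dapl1, chr9:103692808-103693057 (minus strand) for the second start site of Tmem108, chr11:99040994-99041243 (plus strand) for Igfbp4, chr2:71872974-71873223 (plus strand) for the first start site of Pdk1, and chr2:13793521-13793770 (minus strand) for St8sia6.
Dapl1: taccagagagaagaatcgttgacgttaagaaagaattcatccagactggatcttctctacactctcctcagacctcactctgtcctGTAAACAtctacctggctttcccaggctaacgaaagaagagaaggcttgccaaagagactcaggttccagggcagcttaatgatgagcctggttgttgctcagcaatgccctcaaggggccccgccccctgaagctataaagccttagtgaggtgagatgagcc
Tmem108: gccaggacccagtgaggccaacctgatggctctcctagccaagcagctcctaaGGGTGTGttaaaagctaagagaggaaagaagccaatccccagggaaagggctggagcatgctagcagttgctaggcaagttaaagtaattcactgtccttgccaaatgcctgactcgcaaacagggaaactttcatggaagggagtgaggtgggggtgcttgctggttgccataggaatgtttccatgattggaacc
Igfbp4: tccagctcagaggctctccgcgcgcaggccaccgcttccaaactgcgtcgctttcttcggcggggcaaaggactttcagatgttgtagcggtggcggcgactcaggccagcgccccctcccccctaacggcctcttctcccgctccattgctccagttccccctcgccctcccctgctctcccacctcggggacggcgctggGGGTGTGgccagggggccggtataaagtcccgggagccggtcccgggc
Pdk1: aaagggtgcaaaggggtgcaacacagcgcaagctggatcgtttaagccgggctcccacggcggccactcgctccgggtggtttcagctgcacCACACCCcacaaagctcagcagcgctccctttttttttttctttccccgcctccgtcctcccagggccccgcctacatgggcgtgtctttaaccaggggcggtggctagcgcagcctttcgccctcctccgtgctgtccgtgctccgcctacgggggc
St8sia6: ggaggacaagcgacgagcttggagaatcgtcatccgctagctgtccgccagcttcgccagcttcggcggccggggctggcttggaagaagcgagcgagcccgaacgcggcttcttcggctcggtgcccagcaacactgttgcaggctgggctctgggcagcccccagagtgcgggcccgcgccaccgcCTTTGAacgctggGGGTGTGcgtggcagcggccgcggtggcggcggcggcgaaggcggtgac
The motifs, searched on both strands, were CTTTGA for TCF/LEF factors, TGTTTAC for FOXO factors, CGGAAG for ETS factors and CACACCC for KLF factors, and no match overlapped another. The KLF letters stood in 1 window each of 4 of the 8 members, namely Igfbp4, Tmem108, Pdk1 and St8sia6. The other windows of Tmem108 (chr9:103761838-103762087) and Pdk1 (chr2:71874654-71874903) held no match and are not shown. Over all genes the KLF letters stood in 6.93% of 32851 windows of the same length, a share per window and not per gene. The FOXO letters stood 164 bases before the start of Dapl1, and in 3.17% of all windows. The TCF/LEF letters stood 62 bases before the start of St8sia6, which also held the KLF letters at 49 bases, and in 13.8% of all windows. The ETS letters, found in 13.6% of all windows, were in none of the members' windows. These matches describe letters in a window and say nothing of whether a factor binds there.

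All 10 genes were higher in marker-low than in marker-high cells of both lineages when the 4 libraries were summed. This contrast chose the genes, so it is given as a description with no test. Together the 10 genes made up 29.5 UMIs per 10000 in marker-low and 5.95 in marker-high CD8 cells, a ratio of 4.95 (95% interval 4.54 to 5.41 for counting error only, here and below). In CD4 cells they stood at 30.7 against 3.38, a ratio of 9.06 (7.78 to 10.6). Dapl1 and Igfbp4 held 58.4% to 65.2% of the summed UMIs in marker-low cells of each library and lineage. Summed levels here and below thus rest mostly on these genes. Of the 9 members with at least 50 UMIs in CD8 cells, 9 were at least 1.5 times higher in marker-low cells, where 19.4% of 6243 genes were. In CD4 cells all 8 with enough UMIs were, where 15.7% of 3976 genes were. The median ratio was 4.53 for the members in CD8 cells and 6.99 in CD4 cells, beside 1.09 and 1.01 over all genes.

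**Figure D1:**
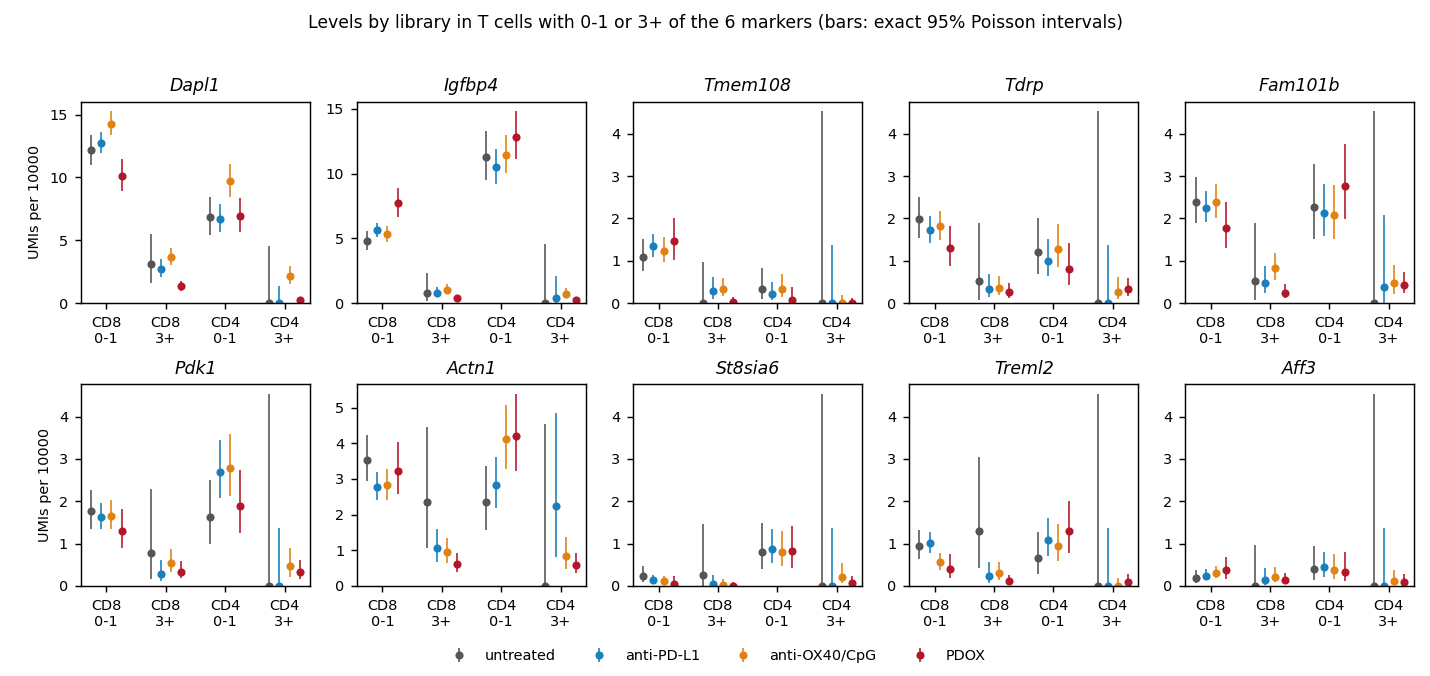
Level of each of the 10 genes in UMIs per 10000 (vertical axis, linear, from 0) in marker-low (0-1) and marker-high (3+) CD8 and CD4 T cells (horizontal axis), with a point for each of the 4 libraries and bars for exact 95% Poisson intervals. The points of marker-low cells lie above those of marker-high cells in both lineages of 7 genes, and overlap with them in CD8 cells for Treml2, St8sia6 and Aff3; the untreated CD4 marker-high point rests on 5 cells, and its bars are wide.

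Among the genes for secreted and surface proteins, Igfbp4 encodes a secreted protein that binds insulin-like growth factors and lies on chromosome 11 (99040005 to 99052655, GRCm38.p6 here and below). In marker-low CD8 cells its level was 4.80, 5.63, 5.31 and 7.72 UMIs per 10000, and in marker-high CD8 cells 0.784, 0.763, 1.03 and 0.365. In marker-low CD4 cells it was 11.3, 10.5, 11.5 and 12.9, and in marker-high CD4 cells 0, 0.372, 0.682 and 0.228. The classes did not overlap in either lineage, and the ratio of the summed levels was 8.12 (6.34 to 10.6) in CD8 and 28.9 (18.8 to 46.9) in CD4 cells. Without the OX40 library the CD4 ratio was 48.6, and without the PDOX library 17.8.

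Treml2 encodes a cell surface receptor of the TREM family and lies on chromosome 17 (48299390 to 48312534). Its CD8 levels were 0.942, 1.0, 0.553 and 0.404 UMIs per 10000 in marker-low cells and 1.31, 0.239, 0.302 and 0.104 in marker-high cells, in the same order of libraries. The untreated library went the other way, on 5 UMIs in 19 marker-high cells. In CD4 cells, 72 UMIs were counted in marker-low and 3 in marker-high cells, a ratio of 17.9 with a wide interval of 5.89 to 88.9. All 3 marker-high UMIs came from the PDOX library. Without it Treml2 was at least 7.05-fold higher in marker-low cells, against a floor of 3 UMIs, and without the OX40 library the ratio was 11.8.

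Tmem108, on chromosome 9 (103482936 to 103761900), encodes a transmembrane protein known mainly from neurons. It stood at 1.09, 1.34, 1.24 and 1.46 UMIs per 10000 in marker-low CD8 cells and at 0, 0.286, 0.332 and 0.0261 in marker-high ones, with no overlap. In CD4 cells 17 UMIs were counted in marker-low cells and none in marker-high cells, so that against a floor of 3 UMIs over the group its level was at least 4.23-fold higher in marker-low cells. This bound was 2.27 without the OX40 and 2.13 without the PDOX library, and the CD8 ratio, 6.82 (4.23 to 11.7), was 11.7 and 4.25.

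A pair of members act on the actin skeleton. Actn1 (chromosome 12, 80167542 to 80260420) encodes an alpha-actinin that crosslinks actin filaments, and Fam101b (chromosome 11, 76019194 to 76027782, also named Rflnb) a filamin-binding protein. Actn1 stood at 3.53, 2.78, 2.82 and 3.23 UMIs per 10000 in marker-low CD8 cells and at 2.35, 1.05, 0.937 and 0.625 in marker-high ones, a ratio of the sums of 3.34 (2.66 to 4.25). Fam101b stood at 2.26 against 0.499 in the summed CD8 cells and at 2.27 against 0.432 in the CD4 cells, ratios of 4.53 and 5.26. For Actn1 the gap was widest in the PDOX library, where its CD8 ratio was 5.17, and narrowest in the untreated library, where it was 1.5 (0.765 to 3.36).

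The enzymes were Pdk1 (chromosome 2, 71873215 to 71903858), a mitochondrial kinase that inhibits pyruvate dehydrogenase, and St8sia6 (chromosome 2, 13651018 to 13794734), a sialyltransferase. Pdk1 stood at 1.62 against 0.416 UMIs per 10000 in CD8 cells (ratio 3.89, 2.79 to 5.55) and at 2.37 against 0.357 in CD4 cells (6.64, 4.12 to 11.3), and was higher in marker-low cells in all 4 libraries of both lineages. St8sia6 was counted in few CD8 cells, with 26 UMIs in marker-low and 3 in marker-high cells. In CD4 cells it had 59 and 6 UMIs, a ratio of 7.34 (3.18 to 20.8), which was 14.3 without the OX40 and 4.69 without the PDOX library.

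The remaining members were Dapl1 (chromosome 2, 59484653 to 59505020), a small protein related to the death-associated protein DAP, Tdrp (chromosome 8, 13952008 to 13975478), named for its part in testis development, and Aff3 (chromosome 1, 38175393 to 38630178), a nuclear protein of the AFF family known from lymphoid cells. Dapl1 stood at 12.2, 12.7, 14.3 and 10.1 UMIs per 10000 in marker-low CD8 cells and at 3.14, 2.72, 3.66 and 1.33 in marker-high ones. In CD4 cells it stood at 6.81, 6.70, 9.68 and 6.90 against 0, 0, 2.15 and 0.228. The classes did not overlap in either lineage, and the summed ratios were 5.10 (4.47 to 5.85) and 8.47 (6.30 to 11.6). Of the 48 Dapl1 UMIs in marker-high CD4 cells, 41 came from the OX40 library, and without that library the CD4 ratio was 33.1. Without the PDOX library it was 4.31.

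Tdrp stood at 1.74 against 0.322 in the summed CD8 cells (5.40, 3.73 to 8.08) and at 1.08 against 0.282 in the CD4 cells (3.83, 2.18 to 7.17). Aff3 had the smallest CD8 ratio of the 10 genes, 1.71, with an interval of 0.943 to 3.27 that includes no difference. In CD4 cells Aff3 had 28 and 5 UMIs, a ratio of 4.18 (1.59 to 13.9).

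Cells near the limits show where along the marker count the genes fell. Summed over the 10 genes, CD8 cells with 0, 1, 2, 3 and 4 or more markers stood at 29.7, 29.3, 17.3, 9.40 and 5.0 UMIs per 10000. CD4 cells stood at 30.6, 30.7, 27.9, 6.66 and 2.27. The 205 CD8 cells with 2 markers thus lay between both classes, and did so in each library (20.5, 16.1, 21.1 and 10.6). The 60 CD4 cells with 2 markers stood at 34.7, 18.5, 34.5 and 21.1 in the 4 libraries, from 5, 10, 29 and 16 cells, which was below the marker-low level in the PDL1 and PDOX libraries and not in the others. Of their 257 UMIs, 148 came from the OX40 library. Single genes differed: Igfbp4 in CD8 cells was at 5.48 with 1 marker, 2.40 with 2 and 0.911 with 3, whereas Treml2 was at 0.810, 0.627 and 0.624. In CD4 cells Fam101b stood at 2.12 with 1 marker, 3.80 with 2 and 0.740 with 3, the middle value from 60 cells.

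**Figure D2:**
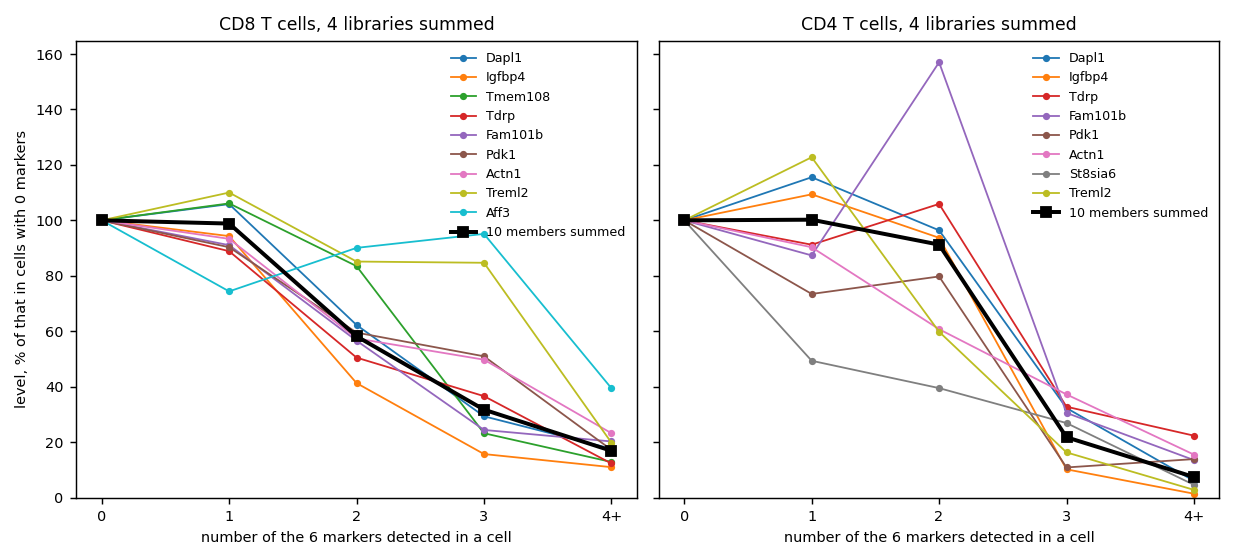
Level of each gene as a percentage of its level in cells without any of the 6 markers (vertical axis, linear, from 0), against the number of markers detected in a cell (horizontal axis), for CD8 cells (left) and CD4 cells (right), 4 libraries summed; genes with fewer than 50 UMIs in a lineage are left out. The black line for all 10 genes falls from 29.7 to 17.3 UMIs per 10000 by 2 markers in CD8 cells and from 30.6 to 27.9 in CD4 cells, where the libraries differed (18.5 to 34.7).

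Per cell, the same contrast was read after thinning each cell to 750 UMIs, which left out 111 to 212 cells of a library. Dapl1 was then found in 41.9% of marker-low and 9.18% of marker-high CD8 cells (50.6% and 16.2% unthinned). These pooled shares mix libraries, as PDOX gave 157 of 316 marker-high but 174 of 1255 marker-low cells. By library the marker-low shares were 44.4%, 39.8%, 44.7% and 37.4%. The marker-high shares were 20.0% (of 10 cells), 15.9%, 12.4% and 4.46%. Igfbp4 was found in 44.3% of marker-low CD4 cells and in 0 of 193 marker-high ones (53.4% and 3.98% unthinned). In B cell-like cells, which served as background and had a median of 1203.5 UMIs, each of these genes was found in 1.65% of thinned cells (1.52% and 2.27% unthinned). Thinned marker-high CD4 cells held Dapl1 in 2.07%, near this background. The median depth before thinning was 1413 to 1614.5 UMIs in marker-low CD8, 1893 to 3057 in marker-high CD8, 1291.5 to 1506 in marker-low CD4 and 1348 to 2115 in marker-high CD4 cells. A marker-low cell held transcripts of 1.45 of the 10 genes on average in CD8 and 1.51 in CD4, against 0.275 and 0.114 in marker-high cells. None of the 10 was found in 21.0% of marker-low and 78.5% of marker-high CD8 cells, and in 21.3% and 89.6% of CD4 cells.

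Markers of other cells moved with some of these classes. The 4 Treg markers (Foxp3, Ikzf2, Il2ra and Ctla4) summed to 3.72 to 17.2 UMIs per 10000 in marker-high and 0.243 to 1.83 in marker-low CD4 cells. When cells with a Foxp3 UMI were left out, the CD4 ratios of Igfbp4 and Dapl1 were 26.8 and 8.06. In CD8 cells the 5 NK cell markers summed to 0.784 to 2.36 in marker-high and 0.147 to 0.436 in marker-low cells, and their part was not tested. The 5 B cell markers summed to at most 0.891 and the 5 monocyte markers to between 2.12 and 5.75 in any class. Erythroid markers summed to 131 in marker-low CD8 cells of the OX40 library and to at most 7.07 in every other class. They are hemoglobin genes, which the levels per 10000 leave out.

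Between the lineages, CD8 and CD4 marker-low cells of the same library were compared. The choice of genes read levels in these same cells but did not set the lineages against each other. The members split: Tmem108, Dapl1 and Tdrp were higher in CD8 cells, and St8sia6, Igfbp4 and Pdk1 were higher in CD4 cells. Of the 9 members tested, 6 were called at an adjusted p under 0.05 (edgeR's quasi-likelihood test on UMIs summed per library, library as block, Benjamini-Hochberg adjustment over all genes), where 9.04% of the 3826 genes tested were called. Aff3 was too sparse to be tested. St8sia6, with 1 to 10 CD8 UMIs per library, and Tmem108, with 1 to 7 CD4 UMIs, passed the filter on low counts through the other lineage. A large difference was thus favored for both. The median difference was -0.14 over the members and 0.00 over all genes, on the log2 scale.

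Tmem108 was 3.36, 6.14, 3.75 and 21.5 times higher in CD8 than in CD4 cells, the last, in the PDOX library, on a single CD4 UMI. Its log2 difference was 2.42 ± 0.28 (SE, edgeR's quasi-likelihood test, Benjamini-Hochberg adjusted p = 1.7e-09, higher in 4 of 4 libraries). Dapl1 was 1.79, 1.90, 1.48 and 1.47 times higher, a log2 difference of 0.73 ± 0.08 (edgeR, Benjamini-Hochberg adjusted p = 6.3e-11, higher in 4 of 4). The lowest Dapl1 level of a CD8 sum, 10.1, lay above the highest of a CD4 sum, 9.68.

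Tdrp stood at 1.97, 1.72, 1.81 and 1.29 in CD8 against 1.22, 1.0, 1.27 and 0.812 in CD4 cells, a log2 difference of 0.67 ± 0.18 (edgeR, Benjamini-Hochberg adjusted p = 0.0071). All 4 CD8 values lay above all 4 CD4 values, but the call was lost without the PDL1 library (log2 difference 0.61, adjusted p = 0.063 in the same edgeR test). It was also lost without the library as a block (0.69, adjusted p = 0.055, edgeR), on thinned counts (0.73, adjusted p = 0.079, edgeR) and in DESeq2 (0.67, adjusted p = 0.57).

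In the other direction, St8sia6 stood at 0.236, 0.144, 0.117 and 0.0404 UMIs per 10000 in CD8 cells and at 0.810, 0.870, 0.803 and 0.812 in CD4 cells. This was the largest difference of the members in size, a log2 difference of -2.56 ± 0.33 (edgeR, Benjamini-Hochberg adjusted p = 3.1e-08, lower in CD8 in 4 of 4 libraries). The CD4 values were nearly alike across libraries, while the CD8 values rest on 1 to 10 UMIs each. St8sia6 could be tested in 13 of the 14 alternatives, and its call held in those 13. The alternatives reuse the same few CD8 UMIs, so they do not lift the limit from the filter on low counts given above. Igfbp4 differed by -0.97 ± 0.08 (edgeR, Benjamini-Hochberg adjusted p = 2.6e-14), and its CD8 level lay below its CD4 level in 4 of 4 libraries with no overlap.

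Pdk1 stood at 1.77, 1.62, 1.66 and 1.29 in CD8 and at 1.62, 2.70, 2.79 and 1.90 in CD4 cells, a log2 difference of -0.55 ± 0.15 (edgeR, Benjamini-Hochberg adjusted p = 0.0084). The untreated library did not share the direction. The call was lost without the OX40 library (-0.46, adjusted p = 0.18, edgeR) and without the PDL1 library (-0.47, adjusted p = 0.10, edgeR), and also without the block (-0.52, adjusted p = 0.11, edgeR), on thinned counts (-0.54, adjusted p = 0.13, edgeR) and in DESeq2 (-0.50, adjusted p = 0.81).

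Fam101b (-0.01 ± 0.14), Actn1 (-0.14 ± 0.12) and Treml2 (-0.40 ± 0.22) were not called, with edgeR adjusted p-values of 0.99, 0.58 and 0.31. As fold of CD8 over CD4, the 95% intervals of the fit ran from 0.825 to 1.20 for Fam101b, from 0.765 to 1.07 for Actn1 and from 0.557 to 1.02 for Treml2. Of the 14 naive T cell genes, 6 were called, 5 lower in CD8 cells, such as the transcription factor Ets1 at -0.33 ± 0.08 and the chromatin organizer Satb1 at -0.33 ± 0.09, and 1 higher, the IL-7 receptor chain Il7r at 0.29 ± 0.09, which was named after its value was seen. The called naive genes thus lay between -0.33 and 0.29, and the called members between -2.56 and 2.42. Those ends are St8sia6 and Tmem108, with few UMIs in 1 lineage, and the other called members lay between -0.97 and 0.73.

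**Figure D3:**
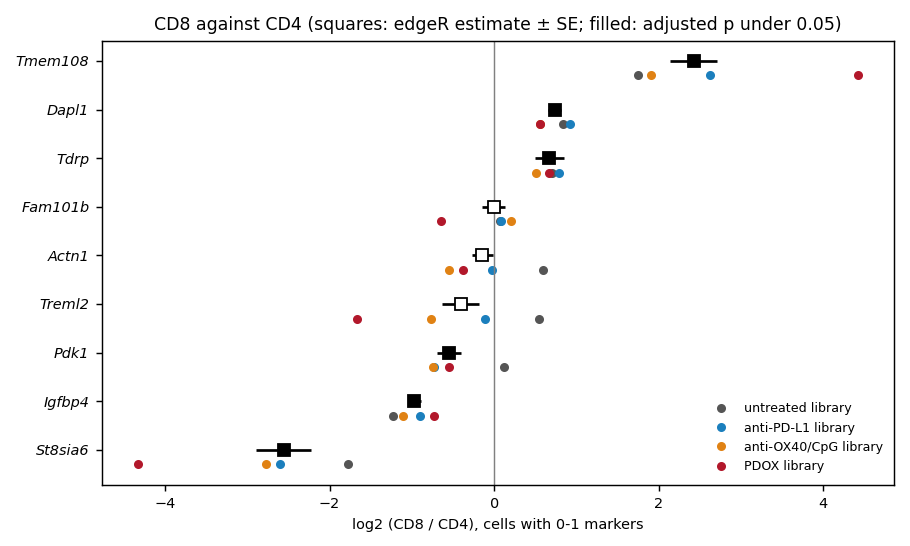
Difference between CD8 and CD4 marker-low cells (horizontal axis, log2 of CD8 over CD4) for the 9 genes tested (vertical axis): squares with bars are the edgeR estimates ± SE, filled where the adjusted p was under 0.05, and colored points are the ratios within each library (PDL1 and OX40 are written there as anti-PD-L1 and anti-OX40/CpG, as in all the plots). All 4 points lie right of 0 for Tmem108, Dapl1 and Tdrp and left of 0 for Igfbp4 and St8sia6, while the untreated point of Pdk1 lies right of 0.

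In marker-high cells the same comparison used 3 libraries, because the untreated one had 5 marker-high CD4 cells. Dapl1 was again higher in CD8 cells, by 1.53 ± 0.29 on the log2 scale (edgeR, Benjamini-Hochberg adjusted p = 5.6e-04), the only call among 4 members that could be tested, where 3.01% of 3950 genes were called. It had 0, 41 and 7 UMIs in the CD4 sums of the PDL1, OX40 and PDOX libraries, the 41 from 8 cells. In the CD8 sums it had 57, 121 and 51. Dapl1 thus passed the filter on low counts through CD8 cells, so a large difference was favored. The Dapl1 call was lost without the PDL1 library (1.39, edgeR adjusted p = 0.11), without the block (1.5, edgeR adjusted p = 0.37), without the 5% of cells with most UMIs (1.24, edgeR adjusted p = 0.17) and when cells with markers of other cell types were kept (0.47, edgeR adjusted p = 0.82). Without the OX40 library it was 2.91 (edgeR adjusted p = 0.015). Igfbp4 (0.78 ± 0.37, edgeR adjusted p = 0.39), Fam101b (0.24 ± 0.41) and Actn1 (0.04 ± 0.32) were not called.

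Outside T cells, most members were rare. Against B cell-like cells of 3 libraries (the OX40 library had 7 such cells), 8 members were tested. Of these, 6 were lower in B cell-like than in marker-low T cells of both lineages together. Over all genes tested, 19.0% of 3959 were called in either direction. The members were chosen for a high level in marker-low T cells, so lower values in B cell-like cells were favored in advance. Their calls are therefore a description. Dapl1, Tdrp and Igfbp4 had 2, 2 and 4 UMIs in B cell-like cells of all 4 libraries, and Pdk1, Fam101b and Actn1 had 6, 7 and 9. All 6 thus entered the test through the T cell sums. The log2 differences were -6.30 ± 0.43 for Dapl1, -4.86 ± 0.42 for Igfbp4, -3.48 ± 0.64 for Tdrp, -2.52 ± 0.43 for Fam101b, -2.44 ± 0.37 for Actn1 and -2.18 ± 0.49 for Pdk1, with edgeR adjusted p-values (Benjamini-Hochberg) from 4.8e-10 to 0.0025. All 6 calls held in each of the 13 alternatives run. Of the naive T cell genes, 7 of 14 were called, 6 lower and 1 higher in B cell-like cells.

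The 2 tested members that were not called were Tmem108 (-0.24 ± 0.40, edgeR adjusted p = 0.79) and Treml2 (0.65 ± 0.35, edgeR adjusted p = 0.24). In the 132 B cell-like cells Tmem108 stood at 0.782 UMIs per 10000 and Treml2 at 1.28, and Aff3, which was not tested, at 0.502. Beside these, marker-low CD4 cells had 0.238, 1.01 and 0.393. NK cell-like cells, 62 in number, had no Dapl1 UMI among 107007, which allows a level of up to 0.280 per 10000 by the 3 counts that a count of 0 allows. For comparison, marker-high CD8 cells, which share cytotoxic genes with NK cells, stood at 2.50.

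**Figure D4:**
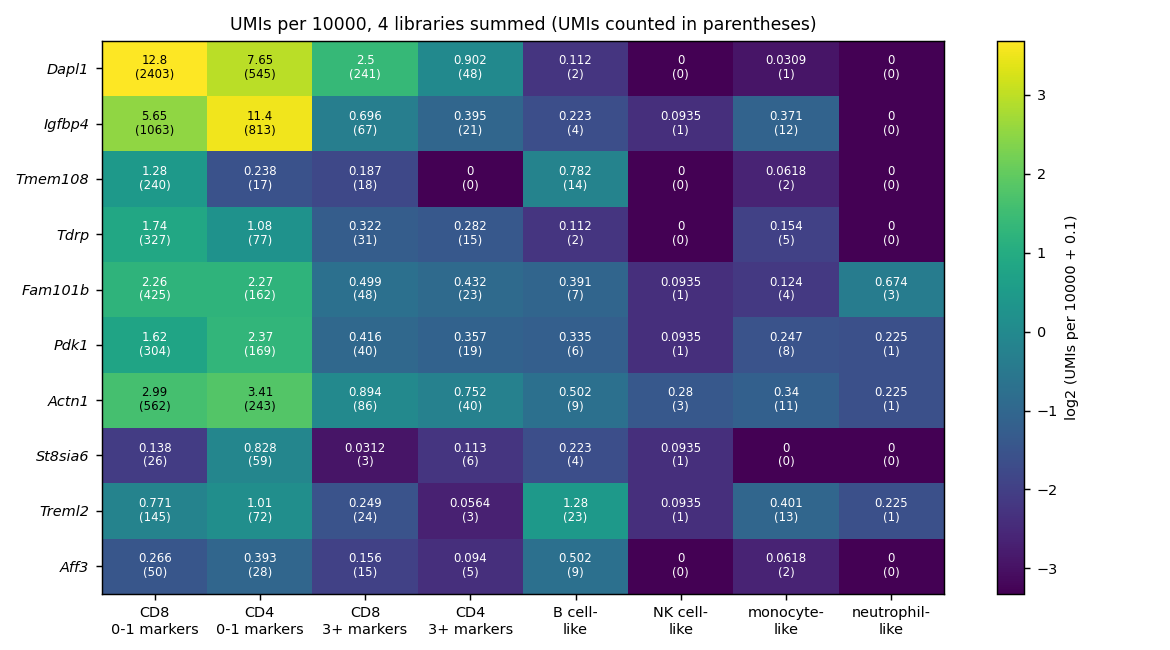
Level of each gene (rows) in the marker-low and marker-high T cells and in 4 other kinds of blood cell (columns), 4 libraries summed, as UMIs per 10000 with the UMIs counted in parentheses; color gives log2 of the level plus 0.1. Marker-low columns are brightest for most genes, and Treml2, Tmem108, Aff3 and St8sia6 are the rows where the B cell-like column (1.28, 0.782, 0.502 and 0.223) stands above a marker-low column.

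Across treatments, the summed level of the genes within marker-low cells lay within 1.22-fold of that in the untreated library, which all 3 treated groups share as their comparator. With 1 library per group there is no test, and the values compare libraries, not treatments. Dapl1 and Igfbp4 held 58.4% to 65.2% of the summed UMIs in each of these libraries and lineages, so the sum mostly reflects them. Summed over the 10 genes, marker-low CD8 cells stood at 29.1, 29.5, 30.5 and 27.7 UMIs per 10000. The ratios to the untreated library were 1.01 (0.939 to 1.10), 1.05 (0.970 to 1.13) and 0.954 (0.864 to 1.05). Marker-low CD4 cells stood at 27.7, 28.4, 33.9 and 31.9, ratios of 1.03 (0.899 to 1.17), 1.22 (1.07 to 1.39) and 1.15 (1.0 to 1.33).

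Single members differed more than the sum. In CD8 cells, a level at least 1.5 times higher than in the untreated library was found in 0 of 8 members with enough UMIs in the PDL1 library (4.77% of all genes), 0 of 8 in the OX40 library (5.91%) and 1 of 7 in the PDOX library (4.85%). A level at least 1.5 times lower was found in 0 of 8 (5.57%), 1 of 8 (6.49%) and 1 of 7 (5.90%). The lower gene in the OX40 library was Treml2, at 0.587 (0.350 to 0.986) of the untreated level. Treml2 was at 0.429 (0.188 to 0.894) in the PDOX library, on 10 against 32 UMIs, too few to enter these counts. In the PDOX library Igfbp4 was 1.61 (1.30 to 1.99) times higher and Tdrp stood at 0.656 (0.416 to 1.01). Dapl1 was at 0.834 (0.710 to 0.978) of the untreated level there.

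In CD4 cells, 1 of 5 members in the PDL1 library (8.17% of all genes), 2 of 5 in the OX40 library (9.37%) and 1 of 4 in the PDOX library (10.5%) were at least 1.5 times higher, and none was at least 1.5 times lower (4.79%, 5.98% and 5.24% of all genes). Pdk1 was 1.66 (0.991 to 2.91) times higher in the PDL1 and 1.72 (1.02 to 3.01) times higher in the OX40 library, from 20 UMIs in the untreated library. Actn1 was 1.75 (1.14 to 2.76) times higher in the OX40 and 1.79 (1.13 to 2.88) times higher in the PDOX library, and Dapl1 1.42 (1.10 to 1.86) times higher in the OX40 library. Igfbp4, 1.61 times higher in CD8 cells of the PDOX library, was 1.14 (0.913 to 1.43) times higher in its CD4 cells.

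**Figure D5:**
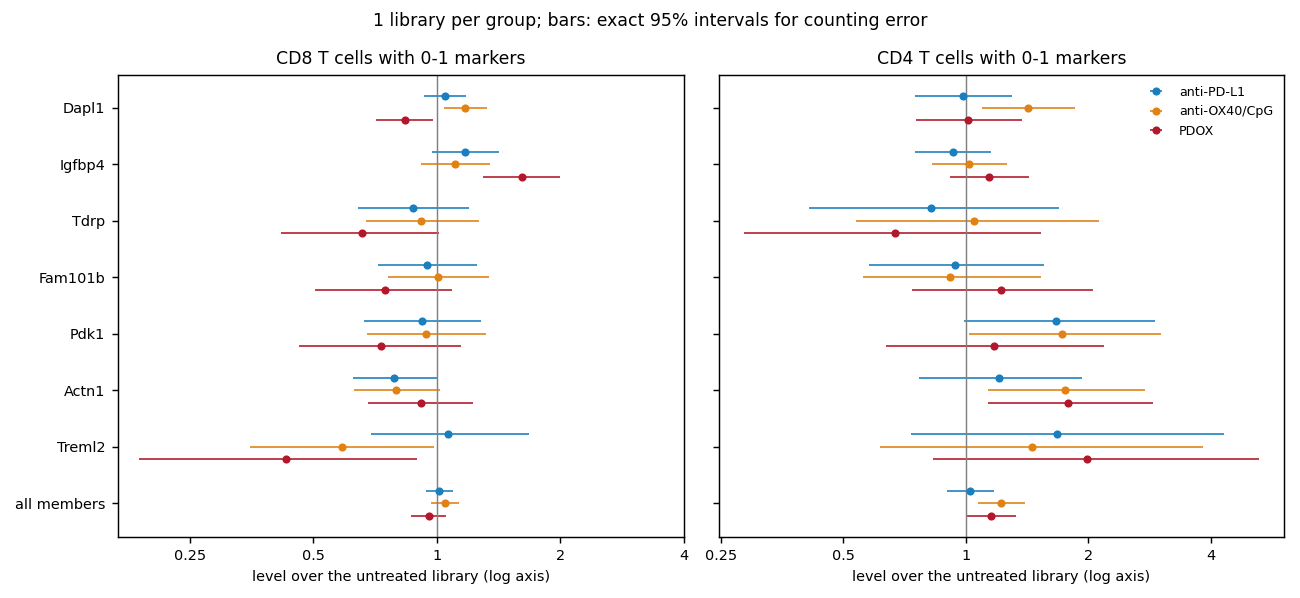
Level in marker-low CD8 (left) and CD4 (right) cells of each treated library over that in the untreated library (horizontal axis, log scale) for 7 of the genes and all 10 summed (vertical axis), with exact 95% intervals for counting error. The summed points lie between 0.954 and 1.22, and Igfbp4 in PDOX CD8 cells lies at 1.61.

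In marker-high cells the libraries lay further apart. The summed level of the 10 genes in marker-high CD8 cells was 9.67, 6.35, 8.22 and 3.41 UMIs per 10000, and the marker-low level was 3.0, 4.64, 3.71 and 8.12 times as high. In CD4 cells it was 0, 2.97, 5.19 and 2.38, and the ratio was 9.57, 6.52 and 13.4 in the treated libraries and at least 7.52 in the untreated one, against a floor of 3 UMIs. The ratio was highest in the PDOX library in CD8 cells and, among the treated libraries, in CD4 cells. The libraries had 19, 61, 151 and 196 marker-high CD8 cells and 5, 13, 82 and 151 marker-high CD4 cells, whose part in this was not tested.

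Levels of the members did not all rise and fall together over the marker-low sums of both lineages. Over the 16 sums of library, lineage and class, all 45 pairs of members had a positive Pearson correlation (0.12 to 0.96 on log2 levels), a direction that the choice of genes fixes. Over the 8 marker-low sums alone, 21 of 45 pairs were positive and the values ran from -0.92 to 0.89. The 8 sums include both lineages, so the split between CD8 and CD4 cells given above enters these values. Dapl1 with Igfbp4, which split by lineage, was at -0.89, and Tmem108 with St8sia6 at -0.92. The sums also share libraries and depth, some rest on few UMIs, and the values are a description.

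By a rule of likeness, the genes outside the list whose level followed the summed level of the members most closely over the 16 sums included Satb1, a chromatin organizer of T cells (r = 0.977), the demethylase gene Alkbh1 (0.975), Dkc1, which encodes dyskerin (0.970), and Pik3ip1, an inhibitor of PI3K (0.969), among 3274 genes with at least 200 UMIs. Satb1 stood at 5.38 UMIs per 10000 in marker-low against 1.78 in marker-high CD8 cells, and at 6.79 against 1.56 in CD4 cells. The 16 sums hold the split into classes by which the members were chosen. A gene lower in marker-high cells is therefore favored in this ranking, and the r values are a description. The members' sum in turn was mostly Dapl1 and Igfbp4 in marker-low cells.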

How the data were processed

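The deposited counts are whole UMIs per gene and cell that the authors made from 10x Chromium Single Cell 3′ libraries, with no normalization. The submitters' processing notes name the mm10 build and Seurat version 2. The 13 mitochondrial, 103 ribosomal protein and 10 hemoglobin genes were not used, and cells with at least 200 of the remaining genes were kept. T cells had a UMI of Cd3d, Cd3e or Cd3g and fewer than 2 markers of each of 4 other cell types (B cells, monocytes, neutrophils, platelets), which left out 517 cells. CD8 cells had a UMI of Cd8a or Cd8b1 and none of Cd4, and CD4 cells the reverse, so 209 cells with both and 1444 with neither were not used. Doublets were treated only by these exclusions, with no caller. B cell-like and NK cell-like cells had no Cd3 UMI and at least 2 markers of their own, and monocyte-like cells at least 3.

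Levels are UMIs per 10000 with exact Poisson intervals, ratios have exact conditional binomial intervals and shares Clopper-Pearson intervals, at 95%. They cover counting error alone. Against 0 UMIs, a floor of 3 was used. Sums per library of at least 10 cells were tested with edgeR 4.0.16 in R 4.3.3 (TMM normalization, filter on low counts, quasi-likelihood test, Benjamini-Hochberg adjustment, threshold on the adjusted p of 0.05). Since both sums of a pair come from 1 library, the model had a term for the library, so p-values measure the spread between libraries of different treatments. Cd4, Cd8a and Cd8b1 were left out of the lineage tests, and all genes used to sort cells out of the B cell test. Fold calls without a test needed 50 UMIs and a ratio of 1.5. The test was checked on simulated data in which 200 genes differed by 1 on the log2 scale. It called 85% of them between lineages in marker-low cells, 42.5% in marker-high cells and 20% against B cell-like cells. False calls numbered 7, 1 and 0. A gene not called, above all in the last 2 comparisons, may thus still differ. Alternatives included DESeq2 1.42.0, other filters, thinning to 750 UMIs and leaving out each library. For tests on thinned counts the classes were set before thinning, and for thinned ratios and shares after it.

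The members and all lists were chosen with earlier results of these data known. Named are all 10 members, the largest changes among up to 4 genes of a list that passed the test, and the 5 genes most like the members' sum, of which 1 is not reported here. Of 23 paralogs of members, values are given in the closing section.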

Additional observations from a re-analysis of the deposited data

Results flagged for a closer look

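The lineage order of Igfbp4 turned between the classes, with every library on one side in marker-low and on the other in marker-high cells. In marker-low cells its CD8 level was 0.496 times its CD4 level (0.452 to 0.544), lower in 4 of 4 libraries. In marker-high cells it was 1.76 times the CD4 level (1.07 to 3.03), higher in 4 of 4 libraries. The marker-high ratio rests on 67 CD8 and 21 CD4 UMIs, in the untreated library on 3 against 0, and edgeR did not call it (adjusted p = 0.39 over 3 libraries). The difference between the classes itself was not tested, and the Treg markers stood at 3.72 to 17.2 UMIs per 10000 in the marker-high CD4 cells against 0.261 to 1.81 in the marker-high CD8 cells.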

How the results depend on the processing

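The tests of members kept their direction and their side of the threshold in 252 alternative values, lost a call in 13 and turned direction in 10. Between lineages in marker-low cells 346 genes were called by edgeR, 143 without the library as a block, 69 by DESeq2, 149 on thinned counts and 236 to 343 without 1 library. In marker-high cells the 119 called became 48 without the block, 31 by DESeq2, 58 on thinned counts, 70 without the 5% of cells with most UMIs and 21 to 82 without 1 library, 21 being without the OX40 and 44 without the PDL1 library. Against B cell-like cells the 754 called became 374 by DESeq2, 472 on thinned counts and 494 to 768 without 1 library, 494 being without the PDL1 library. The libraries pair the sums because both come from the same blood sample and library.

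The summed ratio of marker-low over marker-high was 3.72 in CD8 and 6.91 in CD4 cells with all genes kept in the totals. It was 5.97 and 19.4 on thinned counts with the classes set after thinning. Between cells with 0 and with 4 or more markers it was 5.93 and 13.5. Without 1 library it ran from 3.90 to 6.09 and from 6.39 to 12.4. The ratio of PDOX over untreated in CD4 cells, 1.15, was 0.969 on thinned counts with the classes set after thinning.

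The differences that turned direction were those of uncalled genes. In marker-low cells Fam101b was at 0.0605 with no filter and 0.0258 on thinned counts, and ran from -0.11 to 0.14 without 1 library, the highest without PDOX. Actn1 ran from -0.28 to 0.031 there, above 0 without OX40. In marker-high cells Fam101b was at -0.29 without the top 5% of cells and ran from -0.49 (without OX40) to 0.21 (without PDL1). Actn1 was at -0.0417 in DESeq2 and -0.15 without the top 5%, and ran from -0.13 (without OX40) to 0.25 (without PDL1), with -0.06 without PDOX. The cause was not tested. Depth limits St8sia6, Aff3 and Treml2, which have few UMIs, and every marker-high value of the untreated library, from 19 CD8 and 5 CD4 cells.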

Other observations

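Of the members' relatives, 23 paralogs were read in the same cells. In CD8 cells 10 of them and in CD4 cells 9 had no UMI in either class, and 8 and 4 had at least 50 UMIs. Of these, 4 of 8 in CD8 and 1 of 4 in CD4 cells were at least 1.5 times higher in marker-low cells, where 19.4% and 15.7% of all genes were. Their median ratios were 1.31 and 1.15 (all with at least 50 UMIs), beside 4.53 and 6.99 for the members. The members were chosen by this contrast and the paralogs were not, so the higher medians of the members were favored in advance. Actn2, the muscle alpha-actinin, stood at 1.06 UMIs per 10000 in marker-low CD8 cells and at 0.210 in marker-low CD4 cells. It was higher in CD8 cells by 2.33 ± 0.32 on the log2 scale (edgeR, Benjamini-Hochberg adjusted p = 8.0e-08), while Actn1 differed by -0.14 ± 0.12. Actn2 was the only one of 6 paralogs tested that was called, where 9.04% of all genes tested were. With 3 to 6 CD4 UMIs per library, it passed the filter on low counts through CD8 cells, so a large difference was favored. In CD8 cells the Actn2 level was 2.56 (1.82 to 3.69) times higher in marker-low than in marker-high cells, and that of Actn4, the alpha-actinin of most non-muscle cells, 0.909 (0.705 to 1.18) times. The sialyltransferase St8sia1 was 2.85 (1.60 to 5.46) times higher and St8sia4 1.05 (0.755 to 1.48) times. Dap, the relative of Dapl1, stood in marker-low CD8 cells at 0.791 (0.647 to 0.970) of its marker-high level. Actn4, St8sia4 and Dap were named after their values were seen.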
